A study of Mus musculus with 4 samples.

Results

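The genes described here are 10 targets and feedback regulators of the Wnt pathway (Axin2, Sp5, Tcf7, Tcf7l1, Nkd1, Notum, Rnf43, Znrf3, Dkk1 and Cdx1), taken by symbol from tables that list 25239 gene symbols. All 10 were found. The libraries held poly(A) RNA of mouse embryonic stem cells (mESC) of the genotype Ogt fl/fl, in which the gene for O-GlcNAc transferase can be deleted. Ogt iKO stands for 2 libraries made after 6 days of culture with 4-hydroxytamoxifen (4-OHT), and control for 2 libraries of the same genotype and time without it. The labels name neither the recombinase nor what drives it. All cells grew on mitotically inactive mouse embryonic fibroblasts in a serum-replacement medium with the cytokine LIF, and the protocol describes a sort of live cells meant to remove the fibroblasts. It names CD90.2 as the mark of the stem cells and CD326 as the means of excluding fibroblasts. CD326 (EpCAM) is known as a surface protein of embryonic stem cells, so the labels may give these roles in reverse, and how well the sort worked was not tested. The treated cells alone were also sorted for YFP, so treatment, YFP selection and loss of Ogt cannot be told apart. The labels do not say whether the replicates of a group came from separate cultures, so the p values measure the spread between these libraries, which may be technical.

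Wnt proteins are secreted ligands that bind Frizzled receptors together with LRP5 or LRP6. Without ligand, a cytoplasmic complex built on the scaffold AXIN marks beta-catenin for destruction. With ligand, beta-catenin accumulates and acts with TCF/LEF proteins at target genes, several of which encode inhibitors of the pathway, so that the signal limits itself. In mouse embryonic stem cells the pathway is known to favour self-renewal, in large part by relieving repression by TCF7L1.

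The libraries held 14668489 to 16504204 counts, and the limit set by a count of 0, taken as 3 counts, was 0.175 to 0.196 CPM (counts per 1000000 on library sizes scaled by trimmed means, TMM, the unit of all levels here). Such limits cover counting error only. Ogt itself was counted 437 and 389 times in the Ogt iKO libraries and 2963 and 3108 times in the controls, which matched the labels. Defining markers of stem cells were present in both groups, but 8 of 9 fell, and their summed level was 2350 to 2670 CPM in Ogt iKO against 4300 to 4310 CPM in control. Fibroblast markers summed to 3120 CPM in Ogt iKO replicate 1 and to 934 to 1280 CPM in the other 3 libraries, with 5 of 20 higher, 0 lower and none at 0 in every library. The summed level of 8 primitive endoderm markers was 92.8 to 120 CPM in Ogt iKO against 39.5 to 44.6 CPM in control, with 4 of 8 tested higher. Dab2 made up most of the Ogt iKO sum, at 58.8 to 69.9 CPM. For 8 trophectoderm markers it was 376 to 392 CPM against 118 to 130 CPM, with 5 of 7 tested higher and 1 lower, and Elf5 never above 3 counts. That Ogt iKO sum was mostly the keratins Krt18 (238 to 243 CPM) and Krt8 (89.9 to 101 CPM), while Tfap2c fell from 84.2 to 86.3 CPM in control to 17.6 CPM and Cdx2 was not called. For 7 primitive streak markers it was 27.4 to 28.4 CPM against 12.5 to 14.0 CPM, with 3 of 4 tested higher, and Mesp1 never above 3 counts. At an adjusted p under 0.05, 33.2% of all tested genes were called higher and 32.0% lower. The filter on low counts asked for about 10 counts in at least 2 libraries. Of the markers called higher, Sox17 and Foxa2 (in 2 of these lists) passed it only through the Ogt iKO libraries. Hand1 had 20 and 6 counts in the controls, so a control met it too. Of the primitive endoderm markers that met it in all 4 libraries, 2 of 4 were higher. For trophectoderm it was 4 of 6 and for the primitive streak 2 of 3. The part of these other cell types in the results below was not tested. In such bulk RNA, fewer cells that express a gene and less of its RNA per cell cannot be told apart.

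Promoter windows from RefSeq (GRCm38.p6, 250 bases before to 50 bases after an annotated start) were at hand for 7 of the 10 genes. They were searched for CTTTGA, a form of the core of the motif that TCF/LEF proteins bind, on both strands (TCAAAG on the other). Other forms, such as CTTTGT, were not searched for, so a window without a match may still hold them. Windows of Sp5 and Dkk1 held 2 matches each, and those of Axin2, Tcf7, Tcf7l1, Nkd1 and Rnf43 held 0. Among 14566 windows of the genes tested, 11.9% held a match to CTTTGA. A match is a description of these letters, not a binding site. The windows of Sp5 (chr2:70474673-70474972, plus strand), Dkk1 (chr19:30549447-30549746, minus strand) and Axin2 (chr11:108920099-108920398, plus strand) are shown because they contrast the genes with matches, in capitals, with the other gene that rose. Each runs 5′ to 3′ along its gene.
Sp5: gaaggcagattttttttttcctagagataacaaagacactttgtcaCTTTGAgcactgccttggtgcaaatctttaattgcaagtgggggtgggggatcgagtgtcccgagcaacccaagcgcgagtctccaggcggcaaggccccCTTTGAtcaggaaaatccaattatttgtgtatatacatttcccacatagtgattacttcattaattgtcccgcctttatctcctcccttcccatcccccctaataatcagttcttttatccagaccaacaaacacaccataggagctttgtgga
Dkk1: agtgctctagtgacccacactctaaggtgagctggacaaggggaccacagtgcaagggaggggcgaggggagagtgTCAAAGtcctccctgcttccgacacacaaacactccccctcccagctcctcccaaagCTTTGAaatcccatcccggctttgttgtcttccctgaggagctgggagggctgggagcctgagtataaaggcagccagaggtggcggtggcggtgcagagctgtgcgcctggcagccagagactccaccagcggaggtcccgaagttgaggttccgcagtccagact
Axin2: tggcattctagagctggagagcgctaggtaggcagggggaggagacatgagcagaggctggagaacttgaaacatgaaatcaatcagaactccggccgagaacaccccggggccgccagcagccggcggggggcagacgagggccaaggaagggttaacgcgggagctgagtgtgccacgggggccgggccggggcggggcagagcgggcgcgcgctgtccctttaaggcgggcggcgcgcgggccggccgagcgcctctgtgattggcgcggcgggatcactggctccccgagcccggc

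The matches in Sp5 began 204 and 104 bases before the start, and those in Dkk1 174 and 117 bases before it. CpG dinucleotides, the sites of DNA methylation, numbered 6 in the window of Sp5, 9 in that of Dkk1 and 31 in that of Axin2, against a median of 20 over the windows of tested genes. The Sp5 and Axin2 windows thus lay at the 14.6 and 81.1 percentiles of that count. Tcf7l1 had 34 CpG, and the start of Tcf7 with more had 45.

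The 10 genes did not move as a block. Of them 2 rose (Axin2 and Sp5), 3 fell (Tcf7, Tcf7l1 and Notum) and 5 did not pass the threshold, an adjusted p under 0.05 in edgeR's quasi-likelihood test over all 14525 genes tested. Over all tested genes 33.2% were called higher and 32.0% lower, 65.3% in all, so the number called is no result particular to these 10. Their median log2 fold change was 0.27, against 0.02 for all tested genes. All 10 passed the filter on low counts, but Dkk1 passed it only through the Ogt iKO libraries. Rnf43 met it in 2 Ogt iKO libraries and 1 control. Over the other 8 genes the median was 0.02, with the same 5 calls. Libraries of the groups did not overlap for 9 of the 10, Dkk1 among them, against 83.2% of all tested genes.

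**Figure D1:**
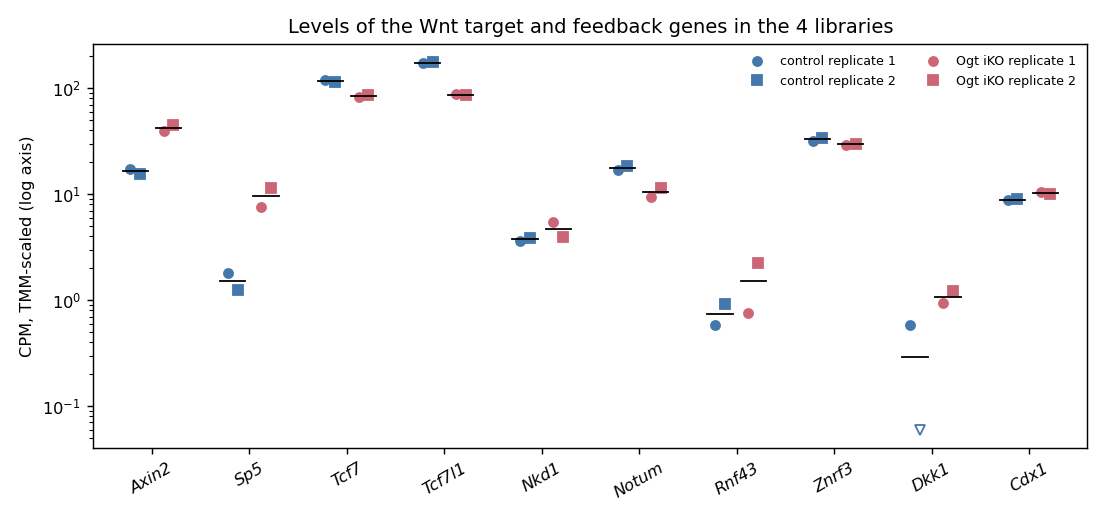
Level of each of the 10 genes in each library, in TMM-scaled CPM on a log axis, with control in blue, Ogt iKO in red, circles for replicate 1, squares for replicate 2 and black bars for group means. The open triangle marks the control library with 0 counts of Dkk1. Axin2 and Sp5 lie higher in both Ogt iKO libraries, and Tcf7, Tcf7l1 and Notum lie lower.

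Axin2 encodes a scaffold of the destruction complex and is the most widely used readout of Wnt signalling. The gene lies on chromosome 11 from 108920349 to 108950783 (GRCm38). It stood at 39.6 and 45.0 CPM in the Ogt iKO libraries and at 17.1 and 15.6 CPM in the controls, from 677 and 698 counts against 265 and 240. Both treated libraries lay more than 2-fold above both controls, and the ratio of the group means was 2.58. Its log2 fold change was 1.37 (SE 0.102, adjusted p 1.189e-05, edgeR with Benjamini-Hochberg adjustment), and it ran from 1.25 to 1.46 when each library was left out in turn. Its constitutive counterpart Axin1, which encodes the same kind of scaffold, had 102 and 101 CPM in Ogt iKO against 120 and 108 CPM in control and did not pass the threshold (log2 fold change -0.17, or 0 with library totals as the only scaling). Per kb of exon, Axin2 RNA went from 0.0998 ± 0.0014 (SD, n = 2) to 0.290 ± 0.0288 (SD, n = 2) of the Axin1 level. The groups did not overlap in this ratio, whose exact two-sided permutation test gave p 0.333, the smallest that 2 libraries against 2 allow.

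Sp5 encodes a zinc finger transcription factor that is a direct target of beta-catenin and limits the expression of other Wnt targets. The gene, on chromosome 2 from 70474923 to 70477729, changed most of the 10. Its counts were 130 and 178 in Ogt iKO and 28 and 19 in control, or 7.60 and 11.5 CPM against 1.81 and 1.24 CPM. The replicates differed by more in Sp5 than in Axin2, yet the lower treated library stood well above the higher control. The log2 fold change of Sp5 was 2.64 (SE 0.289, adjusted p 8.27e-05, edgeR), a ratio of means of 6.26, and lay at the 97.9 percentile of all tested genes. Leaving out each library in turn gave 2.29 to 2.93. Axin2 lay at the 90.1 percentile. Of all tested genes, 14.9% were called with at least a 2-fold rise, as these were.

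Cdx1, a homeobox gene of posterior patterning and a Wnt target in the embryo, lies on chromosome 18 from 61018862 to 61036199. Its levels were 10.4 and 10.1 CPM in Ogt iKO and 8.85 and 8.93 CPM in control. These groups did not overlap, but the difference was small. The log2 fold change of 0.20 (95% interval -0.13 to 0.54) did not pass the threshold (adjusted p 0.254, edgeR). Axin2, Sp5 and Cdx1 therefore differed widely in their values, from 0.20 for Cdx1 to 2.64 for Sp5.

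Tcf7l1 encodes the TCF protein that acts mainly as a repressor in stem cells, and it was the most abundant of the 10 by CPM in control. The gene lies on chromosome 6 from 72626378 to 72789254. It fell from 173 and 175 CPM in control to 87.4 and 85.6 CPM in Ogt iKO, 49.7% of the control level. Replicates were almost alike, with 2685 counts in each control and 1495 and 1328 in Ogt iKO. The log2 fold change of Tcf7l1 was -1.01 (SE 0.0569, adjusted p 3.37e-06, edgeR), at the 6.05 percentile of all tested genes. Library totals as the only scaling gave -0.84, and the call held. Of all tested genes, 6.04% were called with at least a 2-fold fall.

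Tcf7, which encodes TCF1, a TCF protein that can both activate and repress, fell less. The gene lies on chromosome 11 from 52252371 to 52283014 and had 81.9 and 85.2 CPM in Ogt iKO against 118 and 115 CPM in control. The groups were well apart relative to their spread. The log2 fold change was -0.48 (SE 0.0608, adjusted p 0.000183, edgeR), or 71.7% of control.

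Levels between genes were compared as CPM per kb of exon. On that scale Tcf7 and Tcf7l1 were at the same level in control, 44.4 ± 0.680 and 44.4 ± 0.282 CPM per kb (SD, n = 2 each). In Ogt iKO they were 31.8 ± 0.882 and 22.1 ± 0.330 CPM per kb (SD, n = 2 each). The ratio of Tcf7 to Tcf7l1 was 1.01 and 0.984 in the controls and 1.40 and 1.49 in Ogt iKO, without overlap (exact two-sided permutation test, p 0.333, the smallest possible). Lef1, the family member that most clearly acts as an activator and is itself a Wnt target, fell too, from 133 and 134 CPM to 80.7 and 88.7 CPM (log2 fold change -0.66, SE 0.0660, adjusted p 5.11e-05, edgeR). An opposite-strand exon covers 13.7% of the exon length of Lef1, which leaves its count uncertain. Tcf7l2, at 15.4 and 11.5 CPM in Ogt iKO against 13.6 and 17.1 CPM in control, did not pass the threshold (log2 fold change -0.19), although it did without Ogt iKO replicate 1 (-0.41). Its value was -0.01 without Ogt iKO replicate 2 and -0.02 without control replicate 2, and its libraries overlapped between the groups. Summed over the 4 genes, TCF/LEF RNA was 106 CPM per kb in each control and 64.4 and 65.7 CPM per kb in Ogt iKO, 61.5% of the control mean.

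**Figure D2:**
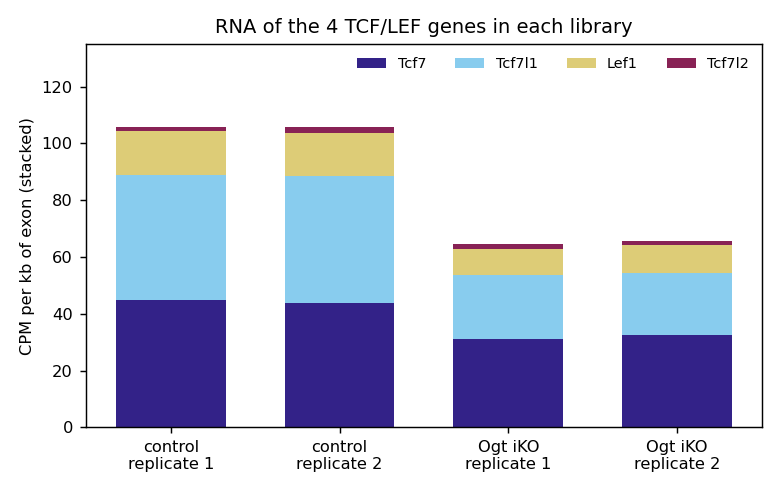
Stacked bars of the 4 TCF/LEF genes in each library, in CPM per kb of exon, with 1 bar per library. The family sum is 106 in both controls and 64.4 and 65.7 in Ogt iKO, and the share of Tcf7l1 is 41.8% and 42.2% in the controls and 34.6% and 33.2% in Ogt iKO.

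The 5 remaining genes encode inhibitors that act outside the cell, at its surface or in the cytoplasm. Notum, a secreted enzyme that removes the lipid from Wnt proteins and so inactivates them, was the only one of these to pass the threshold. Its counts were 160 and 177 in Ogt iKO and 261 and 283 in control, or 9.36 and 11.4 CPM against 16.9 and 18.5 CPM, and fell to 58.8% of control. The log2 fold change of Notum was -0.77 (SE 0.144, adjusted p 0.00167, edgeR), and leaving out each library in turn gave -0.93 to -0.62. Notum (chromosome 11, from 120653788 to 120661175) thus moved opposite to Axin2 and Sp5. Of its exon length, 38.1% lies under exons of opposite-strand transcripts annotated as Notumos and Myadml2os. The strand counted is not given in the sources used here, so reads of those transcripts could be part of its count.

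Znrf3 and Rnf43 encode related membrane ubiquitin ligases that clear Frizzled receptors from the cell surface. Znrf3, on chromosome 11 from 5276324 to 5444847, had 29.2 and 29.6 CPM in Ogt iKO and 32.0 and 33.7 CPM in control. Its log2 fold change of -0.16 did not pass the threshold (95% interval -0.35 to 0.03, adjusted p 0.116, edgeR), and it was 0.01 with library totals as the only scaling. Rnf43, on the same chromosome from 87662722 to 87735539, was near the limit of detection, with counts of 13 and 35 in Ogt iKO and of 9 and 14 in control, which overlapped. Both Ogt iKO libraries met the count filter for Rnf43, but only 1 control did. Exact Poisson 95% intervals of the Ogt iKO counts, 6.92 to 22.2 and 24.4 to 48.7, did not overlap, so these replicates differed beyond counting error. The log2 fold change of Rnf43 was 0.99 (SE 0.539, adjusted p 0.138, edgeR). It was 1.59 (adjusted p 0.00175) without Ogt iKO replicate 1 and 0.01 (adjusted p 0.992) without Ogt iKO replicate 2, so 1 library decided it.

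Dkk1, a secreted inhibitor that binds LRP5 and LRP6, lies on chromosome 19 from 30545863 to 30549665. It was the least expressed of the 10 by its mean count, with 16 and 19 counts in Ogt iKO and 9 and 0 in control. Both treated libraries were above both controls, but Dkk1 was tested only because these libraries passed the count filter, so its fitted values are given as a description. The control with 0 counts was taken at its floor of 3 counts. Against it the Ogt iKO mean of 1.08 CPM was 5.52-fold higher and the lower Ogt iKO library 4.79-fold. Counting error of the Ogt iKO libraries is not part of these values. The other control had 0.582 CPM, against 0.936 and 1.22 CPM in Ogt iKO. The fitted log2 fold change of 1.85 (SE 0.764) did not pass the threshold (adjusted p 0.0595, edgeR), and did with library totals as the only scaling (2.02, adjusted p 0.0481). The call turned on single libraries. Dkk1 passed without Ogt iKO replicate 1 (2.04), without Ogt iKO replicate 2 (1.64) and without control replicate 1 (7.11, fitted against a library at 0 and no bound), and it was 0.88 (adjusted p 0.157) without control replicate 2, the library at 0.

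Nkd1, which binds Dishevelled in the cytoplasm and dampens the signal, was counted 94 and 61 times in Ogt iKO and 56 and 59 times in control. On the CPM scale these were 5.50 and 3.93 against 3.62 and 3.85, so Ogt iKO replicate 2 was next to the controls. The gene, on chromosome 8 from 88521354 to 88594884, had a log2 fold change of 0.34 (95% interval -0.18 to 0.87) that did not pass the threshold (adjusted p 0.222, edgeR). It was 0.08 without Ogt iKO replicate 1, the library with the highest summed level of fibroblast markers, and 0.54 (adjusted p 0.0647) without Ogt iKO replicate 2.

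**Figure D3:**
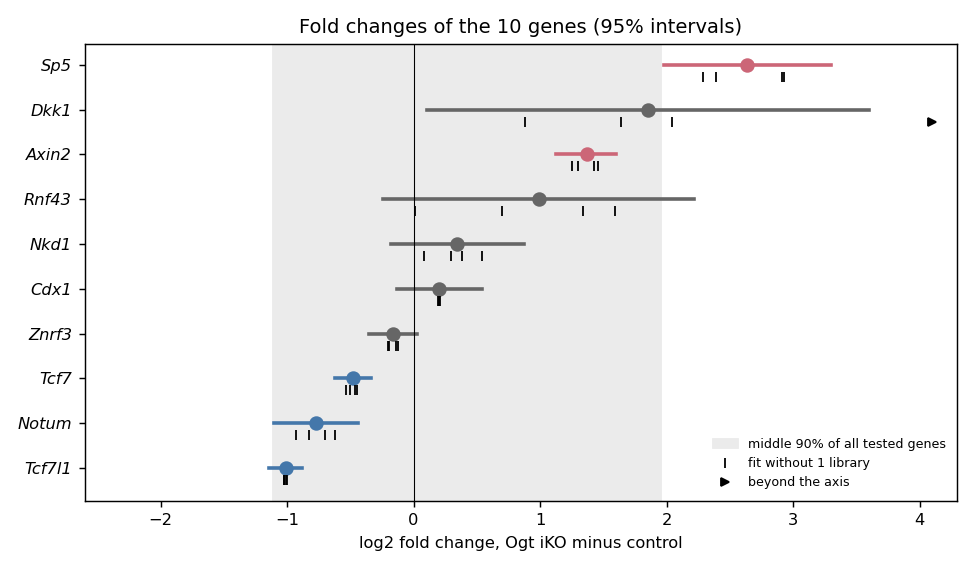
Log2 fold change (Ogt iKO minus control) of each gene with its 95% interval, red for higher, blue for lower and grey for genes not past the threshold. Black ticks show fits that each left out 1 library, the arrowhead marks the Dkk1 value beyond the axis, and the grey band spans the 5th to 95th percentile of all tested genes (-1.11 to 1.95). The intervals of Axin2 and Sp5 lie above 0 and those of Tcf7l1, Notum and Tcf7 below it. That of Dkk1 (0.11 to 3.6) also lies above 0, although its adjusted p did not pass the threshold.

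The order of the 10 levels per kb of exon differed between the groups. In control Tcf7l1 and Tcf7 came first without differing beyond their spread, followed by Notum (7.33 CPM per kb), Cdx1 (5.08), Znrf3 (4.16), Axin2 (2.98), Nkd1 (0.819), Sp5 (0.726), Dkk1 (0.120) and Rnf43 (0.114). There the libraries of Nkd1 overlapped those of Sp5, and those of Dkk1 overlapped those of Rnf43. In Ogt iKO, Tcf7 (31.8 CPM per kb) and Tcf7l1 (22.1) were followed by Axin2 (7.68), Cdx1 (5.85), Sp5 (4.54), Notum (4.31), Znrf3 (3.72), Nkd1 (1.03), Dkk1 (0.445) and Rnf43 (0.230). Only Sp5 and Notum overlapped among neighbours there. Axin2 went from the sixth place to the third and Notum from the third to the sixth. Exon length was the union over all annotated transcripts, which understates the level of genes with many long isoforms.

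The 3 tested genes whose levels over the 4 libraries were nearest to those of Axin2 were Thnsl2, Pfkfb4 and Tdrd1, at Euclidean distances of 0.0406, 0.0504 and 0.0671 in centred log2 CPM, among 11386 genes whose mean log2 CPM was 2 or more. Their log2 fold changes were 1.40, 1.43 and 1.35. With 4 libraries in 2 groups, such likeness mostly restates a similar fold change.

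The other genes of the pathway were then counted from 8 lists of 105 genes, of which 93 were tested, 36 were higher and 29 were lower, with a median log2 fold change of 0.05. Of these, 6 of the higher and 2 of the lower genes passed the count filter in both libraries only of the group where they are high. Cdx4, which was not called, did so in control. Without such genes 30 of 84 were higher and 27 lower. Among all tested genes the shares were the 33.2% and 32.0% given above. Among the 13153 that passed the filter in both libraries of each group, 30.6% were higher and 34.4% lower. These shares stand beside the counts of each list below. DESeq2, an alternative test, called 22 higher and 27 lower.

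**Figure D4:**
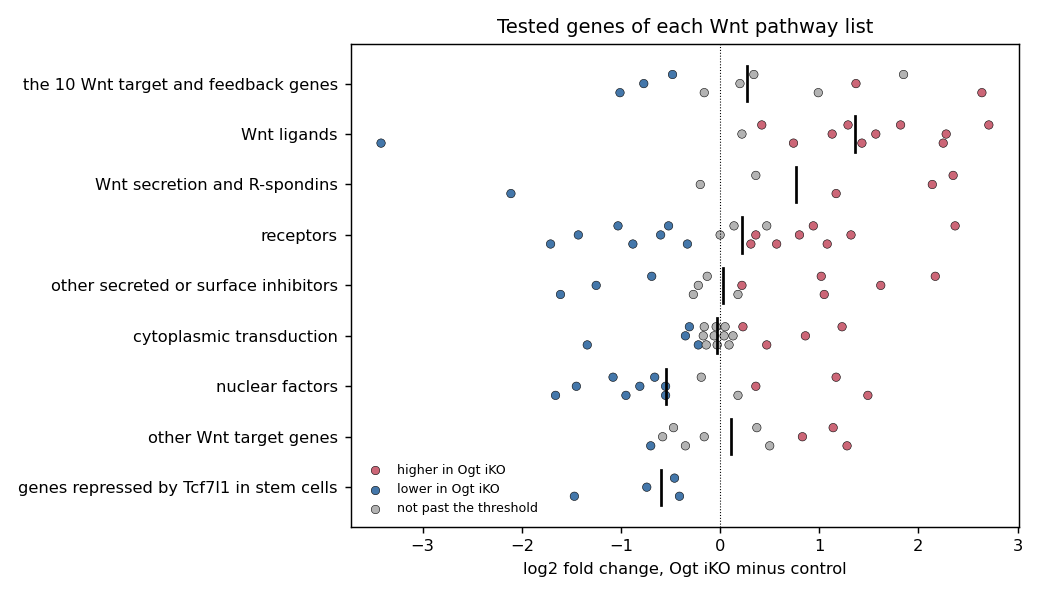
Log2 fold change (Ogt iKO minus control) of each tested gene of the 10 Wnt target and feedback genes and of 8 other Wnt pathway lists, with 1 point per gene, red for higher, blue for lower and grey for genes not past the threshold. Black bars are list medians over the tested genes, such as 1.36 for the Wnt ligands and -0.60 for the genes repressed by Tcf7l1. Of the ligands, 5 passed the count filter in both libraries of 1 group only.

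Among the Wnt ligands, 12 of 19 genes were tested, 10 were higher and 1 was lower, with a median log2 fold change of 1.36. Wnt6, Wnt8b and Wnt11 were tested only because their Ogt iKO libraries passed the count filter, and Wnt3a only because its controls did. Wnt2b met the filter in 2 Ogt iKO libraries and 1 control. The filter thus favoured the direction in which these ligands came out. Of the 7 ligands that passed in both libraries of each group, 6 were higher and 0 were lower, with a median of 1.13. Levels were mostly low, but Wnt8a had 26.8 and 37.4 CPM in Ogt iKO against 23.3 and 24.7 CPM in control. DESeq2 called only 2 of the 12 higher, and Wnt8a (0.42 in edgeR) was not among them. Wnt8a also lost its call with no filter and without Ogt iKO replicate 2 or either control. Wnt3, a ligand needed for the primitive streak, had 10.4 and 13.3 CPM in Ogt iKO against 2.58 and 2.28 CPM in control, so that it rose by 2.28 on the log2 scale (SE 0.210, adjusted p 3.385e-05 in edgeR). Wnt9a rose by 2.25, from 1.94 and 2.61 CPM to 11.3 and 10.3 CPM. Wnt4 (1.43) rose from 14 and 11 counts in control to 39 and 33 in Ogt iKO. Wnt2b (1.29) rose from 13 and 10 counts to 32 and 28, and DESeq2 called neither gene. Wnt3a, another ligand of the beta-catenin branch, was the exception, with counts of 4 and 2 in Ogt iKO and of 37 and 26 in control (log2 fold change -3.42, SE 0.457). Its treated libraries were thus close to the limit of detection, while Wnt3 and Wnt9a moved the other way in both libraries.

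Genes that serve the secretion of Wnt proteins moved apart. Porcn, which adds the lipid to Wnt proteins, fell from 31.3 and 39.5 CPM to 6.84 and 9.61 CPM (log2 fold change -2.11, SE 0.174, adjusted p 1.91e-05, edgeR). Wls, the carrier that takes lipid-modified Wnt proteins to the cell surface, rose from 33.5 and 33.2 CPM to 152 and 142 CPM (log2 fold change 2.14, SE 0.0700, adjusted p 4.05e-07, edgeR). The groups overlapped in neither gene. Rspo1, which encodes a ligand that takes ZNRF3 and RNF43 off the membrane, rose by 1.17, from 4.39 and 4.37 CPM to 9.30 and 10.5 CPM. In this list 3 of 6 tested genes were higher and 1 was lower, the third of the higher genes being Rspo2, which passed the count filter only through its Ogt iKO libraries and was not called by DESeq2.

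**Figure D5:**
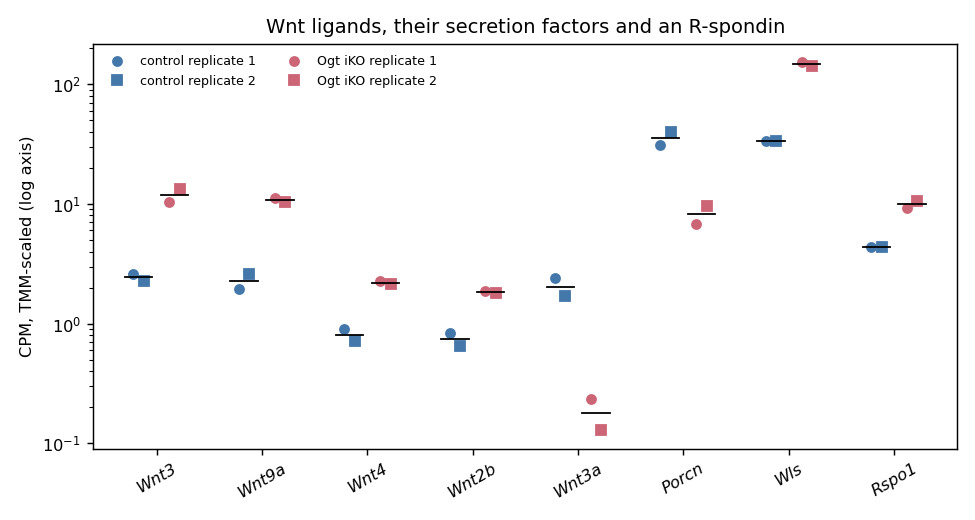
Level in each library of the named Wnt ligands, of Porcn and Wls and of Rspo1, in TMM-scaled CPM on a log axis, with control in blue, Ogt iKO in red, circles for replicate 1, squares for replicate 2 and bars for group means. Wnt3a and Porcn lie lower in both Ogt iKO libraries and the other 6 genes higher.

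Receptors went in both directions, with 8 of 18 higher and 7 lower and a median log2 fold change of 0.22. All tested genes did too, with 33.2% higher and 32.0% lower. Lgr5, counted among the 8, passed the count filter only through its Ogt iKO libraries, and DESeq2 did not call it. Ror1 (0.57), among the higher, lost its call with DESeq2 and without Ogt iKO replicate 1 or either control, and Fzd10 (-0.33), among the lower, lost it in the same fits and with library totals as the only scaling. Of the Frizzled genes, Fzd7, the most abundant of those named, fell from 160 and 156 CPM to 79.3 and 75.4 CPM (-1.03, SE 0.0604). Fzd5 fell by 1.71 on the log2 scale, Fzd9 by 1.43 and Fzd8 by 0.88. Fzd1 rose by 1.32, Fzd6 by 1.08, Fzd2 by 0.94 and Fzd3 by 0.80. The co-receptor Lrp6 did not pass the threshold (log2 fold change 0.14), and did with library totals as the only scaling (0.31) and without control replicate 2 (0.23). An opposite-strand exon covers 17.8% of the exon length of Fzd5.

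Of the other secreted or surface inhibitors, 12 of 17 were tested, 5 were higher and 3 were lower, with 5 lower without Ogt iKO replicate 1. Sfrp4, among the lower, passed the count filter only through the controls, and its call was lost with DESeq2, with library totals, with no filter and without Ogt iKO replicate 2 or either control. Kremen1 (0.22), among the higher, was not called with DESeq2, with no filter or in any fit without 1 library. Sfrp1, a secreted protein that binds Wnt ligands, fell from 73.5 and 90.9 CPM to 26.6 and 27.1 CPM (log2 fold change -1.61, SE 0.110), and its relative Sfrp2 fell by 0.69. Kremen2, a receptor for DKK proteins, rose by 2.17, from 0.840 and 1.04 CPM to 3.68 and 4.84 CPM. Trabd2b, a surface protease that inactivates Wnt proteins, rose by 1.62, Dkk3 by 1.05 and Tpbg by 1.02. Dkk3 was higher in Ogt iKO replicate 1 than in replicate 2 (20.9 against 14.2 CPM), as were the fibroblast markers, and its log2 fold change was 0.74 without the first and 1.28 without the second, with the call kept in all 4 fits without 1 library. Opposite-strand exons cover 23.5% of the exon length of Tpbg and 16.1% of that of Sfrp2.

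Most genes of cytoplasmic transduction changed little, with 4 of 18 higher, 4 lower and 10 not past the threshold (8 higher and 2 lower with library totals as the only scaling, and 2 higher without control replicate 1). Ctnnb1, which encodes beta-catenin, had 1420 and 1390 CPM in Ogt iKO against 1420 and 1300 CPM in control, a log2 fold change of 0.05 (SE 0.0625). Opposite-strand exons cover 14.6% of the exon length of Ctnnb1 and 28.3% of that of Gsk3a, named below. Apc (0.13) and Gsk3b (-0.16, or 0.01 with library totals as the only scaling), components of the destruction complex, did not pass the threshold either. These small values depended on the setting. Ctnnb1 (0.22) and Apc (0.30) were called higher with library totals as the only scaling. Gsk3b (-0.17) and Axin1 (-0.18) were called lower with relative log expression (RLE) size factors and both with a robust spread, Gsk3b without Ogt iKO replicate 1 (-0.22), and Apc (0.21) and Axin1 (-0.25) without control replicate 2. Larger changes were those of Amer1, a membrane partner of APC, which fell by 1.34, of Apc2, which rose by 1.23, and of Dvl3, one of 3 Dishevelled genes, which rose by 0.86. Gsk3a (-0.35) and Tnks2 (-0.22) were no longer called with library totals as the only scaling, Tnks (0.23) without control replicate 1, and Nkd2 (0.47) with DESeq2 and without Ogt iKO replicate 1 or either control.

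Nuclear factors were mostly lower, with 3 of 13 higher, 8 lower and a median log2 fold change of -0.55. Of all tested genes, 33.2% were higher and 32.0% lower. Tle4, a co-repressor that TCF proteins recruit, fell from 222 and 241 CPM to 79.9 and 89.4 CPM (log2 fold change -1.45, SE 0.0741), and its relative Tle1 fell by 0.95, while Tle3 rose by 0.36. Ctnnbip1, which blocks the binding of beta-catenin to TCF proteins, fell by 1.66, although 25.8% of its exon length lies under an opposite-strand exon. The co-activator Bcl9 fell by 1.08 and its relative Bcl9l rose by 1.49, from 27.2 and 30.3 CPM to 88.1 and 73.3 CPM. Pygo1, a partner of BCL9 proteins, rose by 1.17.

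Of 10 other genes known as Wnt targets, 3 were higher and 1 was lower, with a median log2 fold change of 0.11. Tnfrsf19 rose from 25.3 and 21.1 CPM to 50.0 and 52.0 CPM (log2 fold change 1.14, adjusted p 2.72e-05, edgeR) and Ascl2 rose by 1.28. Mixl1 (0.83) passed the threshold, but DESeq2 did not call it, nor did the fit with no filter or the fits without Ogt iKO replicate 2 or either control. Myc fell by 0.70. Without Ogt iKO replicate 1, 4 genes of this list were lower, and without control replicate 2, 2 were.

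The 4 genes listed as ones that TCF7L1 is known to repress in stem cells were all lower, as Tcf7l1 itself was. Of all tested genes, 32.0% were called lower. Esrrb fell from 316 and 341 CPM to 195 and 198 CPM (log2 fold change -0.74, SE 0.0600). Nanog fell by 1.47, Klf2 by 0.46 and Tfcp2l1 by 0.41. Nanog and Esrrb are also among the 9 stem cell markers counted above.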

How the data were processed

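The authors deposited 1 table of raw counts per gene symbol for each library. The submitters' processing notes name STAR, Picard and the mm10 build, without versions or roles. The annotation, the strand counted and the treatment of reads mapped to several loci are not given in the sources used here. Libraries were made with a stranded mRNA kit, per the labels' protocols. Rows that name no gene were not found.

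The test was the quasi-likelihood one of edgeR (4.0.16, under R 4.3.3), with TMM scaling, the filterByExpr filter, 1 fit over the 4 libraries, no covariate and Benjamini-Hochberg adjustment over all 14525 genes tested. SE is the log2 fold change over the root of its F statistic. The scripts were checked on simulated data. Positions, exon lengths and overlaps came from GENCODE vM21 (GRCm38, the assembly of mm10), which had a model for 24366 symbols, and promoter windows from RefSeq (GRCm38.p6).

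The 10 genes and all lists were chosen with earlier results of these data known. Beside the 10, the text names Ogt, Lef1, Tcf7l2, Ctnnb1, Axin1, Apc, Gsk3b, Lrp6, the genes repressed by Tcf7l1, the 3 genes nearest to Axin2, and up to 4 called genes per list and direction with the largest change at a mean log2 CPM of at least 0. Wnt6, Wnt8a, Wnt8b, Wnt11, Rspo2, Lgr5, Sfrp4, Kremen1, Ror1, Fzd10, Cdx4, Sp8 and the markers were named after their values were seen. Alternatives were RLE size factors, library totals, DESeq2 1.42.0, no filter, a filter at 1 CPM or more in 2 or more libraries, a robust spread, a replicate block, a threshold of 0.01 on the adjusted p, leaving out each library and, added after the data were seen, upper quartile scaling.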

Additional observations from a re-analysis of the deposited data

How the results depend on the processing

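Axin2, Sp5, Tcf7, Tcf7l1 and Notum kept their direction and their call under all 13 alternatives run, and Nkd1, Znrf3 and Cdx1 stayed uncalled. Dkk1 was called with library totals (2.02) and with the replicate block (1.89). Over the fits without 1 library its log2 fold change ran from 0.88 without control replicate 2 to 7.11 without control replicate 1, a fitted value against a library at 0 counts and no bound. Rnf43 ran from 0.01 to 1.59 in those fits. The number of the 10 genes called higher ran from 2 to 4, with 4 without Ogt iKO replicate 1, which added Dkk1 and Rnf43. DESeq2 called 22 pathway genes higher, against 36, and 14 of the genes that edgeR called higher missed its threshold. The cause was not tested. Library totals moved the median of all genes (log2) from 0.0237 to 0.193 and the share of higher calls from 50.9% to 65.1%. Dkk1 and Rnf43 had no value with the CPM filter, which removed them. Libraries of the same replicate number shared only that number. Their deviations correlated at 0.0859 across genes, and with the replicate block 3 of the 10 genes were higher and 3 lower. Of the pathway genes, Axin1 (-0.17, adjusted p 0.0494 in edgeR) and Sp8 (-0.55, adjusted p 0.0308) were called lower with it, which made 2 of the other Wnt targets lower, and it changed no other call among the genes listed. For 94 other genes (Ogt and the pathway lists), 1133 of 1216 values kept their side of the threshold, 59 lost the call and 24 gained it. Of the 1133, 16 had the other sign, with the gene called in neither fit, and 0 called values changed sign. Depth limits Dkk1, Rnf43 and the ligands of a few counts.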
